A study of Mus musculus with 9 samples.

Results

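Sphk1, the gene for sphingosine kinase 1, was measured in mouse hearts that carry either of 2 transgenes and in control hearts. It is 1 of 8102 genes that the codes of an Illumina Mouse-6 v1.1 bead array name through their mouse NCBI gene number (20698 for Sphk1), and it is read by 1 probe under that code class. The gene was singled out because its level lay on opposite sides of control in the 2 lines, so the order of its levels is a description and carries no test. Hearts came from FVB mice aged 14 days, with 3 arrays per group and 9 in all. K-line hearts carried a transgene of a mutant membrane transport protein that stays active, N-line hearts carried a transgene of the normal form of that protein, and control hearts are labelled only as control. The promoter that drives the transgenes, the number of founder lines and whether hearts were pooled are not given in the sources used here, and no transgene level is given. The labels number the arrays but do not tie them to separate animals, so p-values measure only the spread between these arrays, which may be technical.

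Sphingosine kinases phosphorylate sphingosine to sphingosine-1-phosphate (S1P), a lipid that signals outside the cell through a family of G protein-coupled receptors. Ceramide is the precursor: ceramidases release sphingosine from it, a kinase makes S1P, and S1P is then either dephosphorylated again or cleaved irreversibly by the lyase Sgpl1. Sphk1 is mainly cytosolic, moves to the plasma membrane when growth factors or cytokines act on a cell, and has been studied in the heart for its part in cardiomyocyte survival, while its paralog Sphk2 is found largely in the nucleus and on mitochondria.

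Sphk1 lies on chromosome 11, with 10 curated and 3 predicted transcripts in RefSeq. The sequence of the array probe was not used here, so it cannot be said which of these transcripts it reads. RefSeq (GRCm38.p6) lists 5 start sites for the gene in the table used here, and windows from 250 bases before to 50 after each start fall into 3 stretches that do not overlap. One window of each is shown, because the array signal is a sum over any of these starts that the probe can see. All are on the plus strand and run 5′ to 3′. Capitals mark the letters found in a search of both strands for an AP-1 site (TGACTCA or TGAGTCA, which are each other's reverse complement), an Sp1 site (GGGCGG), a cAMP response element (TGACGTCA), the core of a hypoxia response element (ACGTG) and a TATA box (TATAAA).
Start 1, chr11:116530850-116531149: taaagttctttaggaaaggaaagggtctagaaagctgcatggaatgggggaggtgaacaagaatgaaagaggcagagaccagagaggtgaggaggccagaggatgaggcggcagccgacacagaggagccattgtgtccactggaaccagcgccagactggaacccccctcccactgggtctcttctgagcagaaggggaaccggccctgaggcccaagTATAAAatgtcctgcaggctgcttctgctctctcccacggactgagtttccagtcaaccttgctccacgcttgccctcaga
Start 2, chr11:116531587-116531886: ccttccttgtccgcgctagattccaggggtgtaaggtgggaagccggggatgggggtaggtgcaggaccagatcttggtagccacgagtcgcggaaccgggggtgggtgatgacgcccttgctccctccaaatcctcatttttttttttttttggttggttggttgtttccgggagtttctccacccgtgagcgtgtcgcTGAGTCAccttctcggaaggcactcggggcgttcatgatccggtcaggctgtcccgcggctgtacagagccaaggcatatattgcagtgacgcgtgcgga
Start 4, chr11:116532194-116532493: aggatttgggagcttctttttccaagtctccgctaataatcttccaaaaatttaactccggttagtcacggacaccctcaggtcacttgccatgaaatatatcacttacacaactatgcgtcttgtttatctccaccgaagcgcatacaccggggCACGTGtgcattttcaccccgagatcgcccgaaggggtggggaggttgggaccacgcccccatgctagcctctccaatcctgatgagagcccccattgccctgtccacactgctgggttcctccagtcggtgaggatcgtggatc
The first window holds a TATA box, found in 13.6% of 32851 windows of the same length in that table, 1 chromosome aside. The second holds the AP-1 letters TGAGTCA, found in 5.2% of those windows, and the last holds ACGTG on both strands of 1 palindrome, found in 19.6%. No Sp1 letters (in 35.7% of windows) and no cAMP response element (in 1.8%) were found in the 5 Sphk1 windows. These matches are descriptions of letters and were not tied to any value below.

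The 9 arrays detected between 17937 and 19021 of 46657 probes each, and the test covered the 19692 probes above background on 3 arrays or more, where above background means a detection p-value under 0.05. The K-line arrays were on a slide of their own, and the N-line and control arrays shared the other slide, so a slide effect and a K-line effect cannot be told apart. The labels call every animal male, yet Xist was above background on all 3 K-line arrays and on 0 of the 6 others, and the Y-linked genes Kdm5d, Ddx3y and Eif2s3y were above background on 0 K-line arrays but on at least 2 of 3 arrays in N-line and in control. The K-line contrasts are therefore also contrasts of apparent sex, which cannot be told apart from K-line or its slide. Every K-line value below rests on those 3 arrays and cannot be given without them. In the N-line difference from control they enter only through the detection filter, the shared normalization and the shared estimate of the spread. N-line and control are on 1 slide. Of 8 defining markers of cardiomyocytes only Myh6 had a usable name, and it was bright in all groups, with 13.24 ± 0.19 in K-line, 13.19 ± 0.13 in N-line and 13.08 ± 0.08 in control hearts (log2 signal, SD, n = 3 each).

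Sphk1 was above background on all 9 arrays. Its raw intensity, the mean over the beads that carry the probe, was 305.3, 378.7 and 288.7 on the K-line arrays (replicates 3, 5 and 6), 137.2, 127.2 and 130.2 on the N-line arrays (replicates 2, 3 and 4) and 239.9, 214.1 and 197.6 on the control arrays (replicates 1, 2 and 3). The 3 groups did not overlap even before any normalization: the lowest K-line array exceeded the highest control array, and the lowest control array exceeded the highest N-line array. Between 34 and 47 beads were read per array, and the standard error over beads was at most 13.94 in K-line, 6.44 in N-line and 10.59 in control hearts. The group means were 324.2 ± 47.9, 131.5 ± 5.1 and 217.2 ± 21.3 in K-line, N-line and control hearts (SD, n = 3 each). Detection p-values were 0 on the K-line and control arrays and 0.0025, 0.00437 and 0.00374 on the N-line arrays, where the probe is closest to background.

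After background correction and quantile normalization the log2 signals were 8.07, 8.04 and 7.95 in K-line hearts, 6.91, 6.72 and 6.55 in N-line hearts and 7.57, 7.62 and 7.54 in control hearts. K-line was highest, control was in the middle and N-line was lowest, and both neighbours in that order were separated. The means were 8.02 ± 0.07 in K-line, 6.72 ± 0.18 in N-line and 7.58 ± 0.04 in control hearts (SD, n = 3 each). K-line exceeded control by 0.44 on the log2 scale (SE 0.10 from the limma fit), which is 1.36-fold, with a gap of 0.32 between the lowest K-line and the highest control array. N-line was below control by 0.85 (difference -0.85, SE 0.10), which is 1.81-fold, or 55.3% of the control level, with a gap of 0.63 between the groups. K-line exceeded N-line by 1.30 (SE 0.10), which is 2.46-fold, and here the gap was 1.04. The N-line arrays varied most among themselves, from 6.55 to 6.91.

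**Figure D1:**
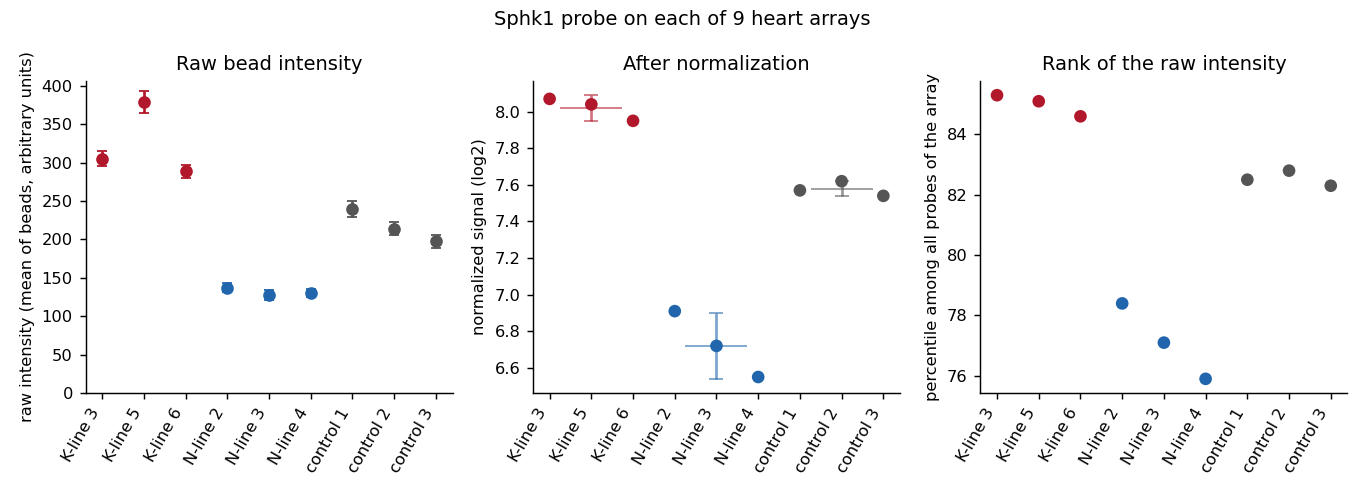
Signal of the Sphk1 probe on 9 heart arrays, with K-line in red, N-line in blue and control in grey. Left, raw intensity in arbitrary units with the standard error over beads as bars; middle, normalized log2 signal with the group mean (horizontal line) and SD (bar); right, percentile of the raw intensity among all 46657 probes of the same array. In each panel the K-line arrays lie above the control arrays and the N-line arrays below them, with log2 means of 8.02, 6.72 and 7.58 in K-line, N-line and control.

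These sizes stand against different backgrounds. In K-line against control 24.3% of the 19692 probes passed the test in either direction (adjusted p under 0.05 by limma) and 40.6% had groups that did not overlap. A difference at least as far above control as that of Sphk1 was shown by 9.43% of the probes. In N-line against control 0.929% passed the test and 19.7% had groups that did not overlap, and only 0.234% of the probes lay at least as far below control as Sphk1. For K-line against N-line 24.2% passed, 39.5% did not overlap and 0.787% were at least as far above. The 2 comparisons with control share the same 3 control arrays. Nothing about Sphk1 is read from these shares, since the gene was chosen on the same contrasts.

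The order of the groups does not rest on a particular scaling. By its rank within each array, which no scaling changes, Sphk1 stood at percentiles 85.3, 85.1 and 84.6 of all probes in K-line, 78.4, 77.1 and 75.9 in N-line and 82.5, 82.8 and 82.3 in control hearts. Again the groups did not overlap. In the authors' value table, on a linear scale after their own normalization, the gene had 332.8, 325.8 and 302.9 units in K-line, 109.4, 93.5 and 81.6 in N-line and 185.3, 193.7 and 180.0 in control hearts. The ratio of means there was 1.72 for K-line over control and 0.51 for N-line over control. The size of the K-line difference did move with the scaling, from 0.36 without background correction through 0.44 as reported and 0.63 with median scaling to 0.78 with the authors' value table. In that table the median of the tested probes was itself 0.24 higher in K-line than in control. The N-line difference ran from -0.63 without background correction to -0.98 with the authors' value table, where the median of the tested probes differed by 0.003. With the slide of N-line and control normalized alone it was -0.85. Leaving out 1 array at a time gave 0.42 to 0.48 for K-line and -0.95 to -0.77 for N-line.

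**Figure D2:**
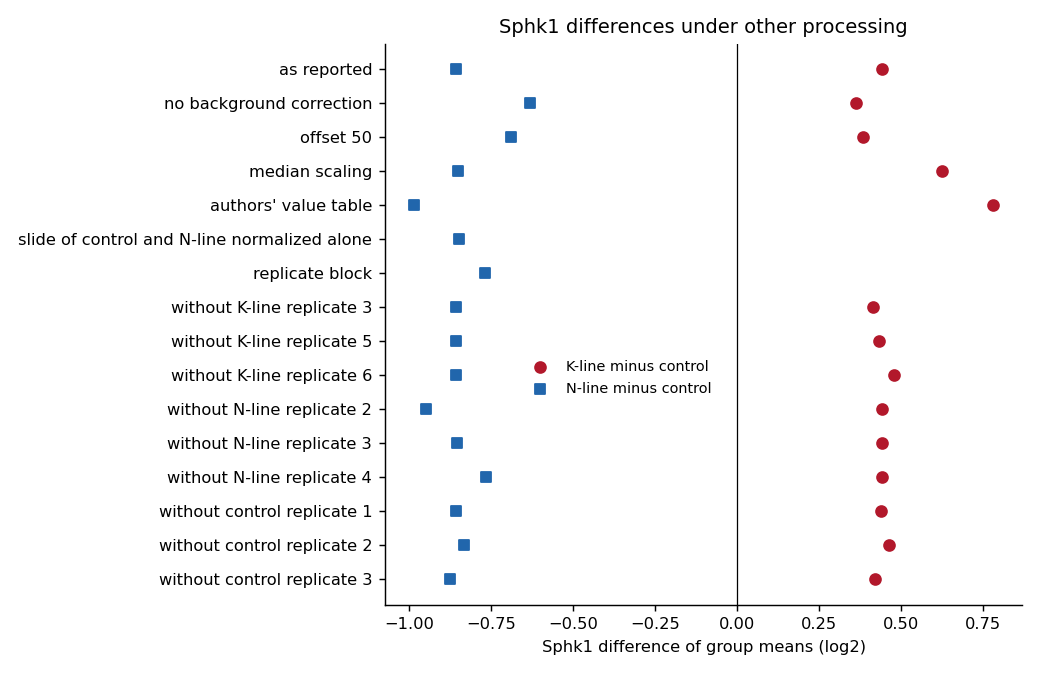
Difference of the Sphk1 group means on the log2 scale, K-line minus control (red circles) and N-line minus control (blue squares), as reported and under each other way of processing or with 1 array left out; the slide alone and the replicate block apply to N-line only. Every K-line value is above 0, from 0.36 to 0.78, and every N-line value is below 0, from -0.98 to -0.63.

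Sphk2, the other sphingosine kinase, differed little between the groups. Its log2 signals were 9.14, 9.09 and 9.36 in K-line, 9.07, 8.99 and 8.92 in N-line and 9.05, 9.05 and 8.96 in control hearts. The K-line arrays lay just above the others, by 0.18 over control (SE 0.10, adjusted p 0.218 by limma), and the N-line and control arrays overlapped (-0.03, SE 0.10, adjusted p 0.963). As processed here Sphk2 passed the test in none of the 3 comparisons, but with the authors' value table it was called in K-line against control (0.38, adjusted p 0.0223) and against N-line (0.41, adjusted p 0.0182), and with median scaling against N-line (0.38, adjusted p 0.0397). The difference between the signals of both kinase probes on the same array, Sphk1 minus Sphk2, was -1.18 ± 0.20 in K-line, -2.27 ± 0.10 in N-line and -1.44 ± 0.03 in control hearts (log2, SD, n = 3 each). Set against Sphk2 in this way, Sphk1 was 0.27 higher in K-line than in control and 0.83 lower in N-line than in control (-0.83). In K-line the 3 values were -1.06, -1.05 and -1.41, and the lowest of them lay next to the highest control value (-1.42), so relative to Sphk2 the K-line arrays only just cleared the control arrays.

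The rest of the sphingolipid pathway was seen only in part. Of 66 listed genes of sphingolipid and S1P metabolism, Sphk1 aside, 24 had a named probe and 18 were tested. In K-line against control 4 of the 18 rose and 2 fell, beside 12% of all probes that rose and 12.4% that fell, and their median difference was 0.06 against -0.01 for all tested probes. In N-line against control 0 of the 18 were called by limma, beside 0.345% of all probes that rose and 0.584% that fell. In that comparison 1 of the 18 had an unadjusted p under 0.05, beside 11.8% of all probes. In K-line against N-line 3 were higher and 3 lower, with a median of 0.19 against -0.01, beside 12.1% of all probes higher and 12.2% lower. With 18 genes these counts are not read as particular to the pathway.

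Among the genes that remove S1P, Plpp3 was measured, which encodes a lipid phosphate phosphatase that dephosphorylates S1P and lysophosphatidic acid at the cell surface. Its log2 signals were 11.44, 11.59 and 11.35 in K-line, 12.17, 12.16 and 12.15 in N-line and 11.83, 12.02 and 11.83 in control hearts. The 3 groups did not overlap, with N-line highest and K-line lowest, the reverse of the order of Sphk1. Of all probes 40.6% did not overlap in K-line against control, 19.7% in N-line against control and 39.5% in K-line against N-line. Plpp3 fell by 0.43 in K-line against control (-0.43, SE 0.10, adjusted p 0.00885 by limma, n = 3 per group) and was lower than in N-line by 0.70 (-0.70, SE 0.10, adjusted p 5.97e-04). In N-line against control the difference of 0.27 did not pass the test (SE 0.10, adjusted p 0.275). The other phosphatase with a named probe, Plpp2, did not reach the detection filter. No named probe stood for the lyase Sgpl1, for the S1P phosphatases Sgpp1 and Sgpp2, or for any of the 5 S1P receptors, so the receptor side of the pathway is not described here.

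Of 7 genes for S1P exporters and carriers only Abcc1 was tested, a membrane transporter that can carry S1P among many other substrates. It had 5.56, 6.08 and 5.49 in K-line, 4.76, 5.03 and 5.08 in N-line and 4.80, 4.79 and 4.92 in control hearts (log2 signal). It was above background on 3 K-line arrays, 1 N-line array and 0 control arrays, so its control level is only a bound. Abcc1 therefore reached the detection filter only through the K-line arrays, where it is high, and its p-values are not free of that choice. Under the stricter filter (detection p under 0.01 on all 3 arrays of a group) it was not tested. It was at least 1.48-fold higher in K-line than in control (fitted difference 0.87, SE 0.15, adjusted p 0.00233 by limma), where the bound is the K-line mean over the control mean of, per array, the larger of its own signal and the dimmest signal above background. Against N-line, where 2 of 3 arrays were not above background, the fitted difference was 0.76 (SE 0.15, adjusted p 0.0052). Its size is uncertain, since it was 0.41 with offset 50 and 2.15 with the authors' value table. N-line and control overlapped (0.12, adjusted p 0.854).

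The 3 ceramidases measured, which release the sphingosine that the kinases use, were not called against control in either line as processed here. The bright lysosomal enzyme Asah1 was at 11.06 ± 0.10 in K-line, 10.85 ± 0.11 in N-line and 10.75 ± 0.22 in control hearts (log2, SD, n = 3 each). Its difference of 0.31 in K-line against control had an adjusted p of 0.0893, and it was called with the authors' value table (0.43, adjusted p 0.0404) and without control replicate 3 (0.41, adjusted p 0.0462). Acer3, a ceramidase of the endoplasmic reticulum and Golgi, was at 0.28 in K-line against control (adjusted p 0.079) and its second probe at 0.27 (adjusted p 0.095), and it was called with the authors' value table (0.50, adjusted p 0.0139). Acer2, a Golgi enzyme, was at -0.15 in K-line (adjusted p 0.312) and 0.19 in N-line (adjusted p 0.507). Between the lines Acer2 was lower in K-line (-0.34, adjusted p 0.0307) and Acer3 higher (0.33, adjusted p 0.0426), while the second probe of Acer3 was not called there (0.28, adjusted p 0.0892) and its groups overlapped. Acer2 was not called with median scaling (-0.17, adjusted p 0.357) or without K-line replicate 3 or 5 or N-line replicate 2, 3 or 4 (adjusted p 0.0519 to 0.0971). Acer3 was not called without control replicate 1 or 2, K-line replicate 5 or 6 or N-line replicate 2, 3 or 4 (adjusted p 0.0505 to 0.128).

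In sphingomyelin turnover Smpd2, a neutral sphingomyelinase that splits sphingomyelin to ceramide, fell in K-line. Its log2 signals were 8.71, 8.22 and 8.55 in K-line, 9.13, 9.05 and 8.92 in N-line and 9.16, 9.11 and 9.21 in control hearts. All 3 K-line arrays were below all 6 others. The difference from control was -0.66 (SE 0.12, adjusted p 0.00339 by limma) and that from N-line -0.54 (SE 0.12, adjusted p 0.0101), and N-line was near control (-0.12, adjusted p 0.794). With the authors' value table the difference from N-line was -0.35 and not called (adjusted p 0.0783). The second gene of this group, Smpd4, was at 6.84 ± 0.05 in K-line, 6.98 ± 0.09 in N-line and 6.85 ± 0.13 in control hearts and was not called (adjusted p 0.985 in K-line against control).

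Of 17 listed enzymes that build ceramide 5 were tested, and 1 passed the test in K-line against control, beside 24.3% of all probes. It was Cers5, a ceramide synthase, with 9.51 ± 0.13 in K-line, 9.33 ± 0.11 in N-line and 9.18 ± 0.09 in control hearts (difference from control 0.34, adjusted p 0.0375). Degs1, the desaturase that completes ceramide, was the brightest of them, with 12.73 ± 0.09 in K-line, 12.52 ± 0.02 in N-line and 12.61 ± 0.06 in control hearts, and was not called (0.12, adjusted p 0.333). Among 6 tested genes of glycosphingolipids and ceramide transfer, Galc (0.44, adjusted p 0.0201), a lysosomal galactosidase, and B4galt6 (0.34, adjusted p 0.0484), which makes lactosylceramide, rose in K-line. Of all probes 12% rose there, so neither count is read as particular to its list. Galc was dim, detected on 1 of 3 control arrays, and its call ended without control replicate 1, 2 or 3 (adjusted p 0.0539, 0.0514 and 0.0587). Cers5 was not called without control replicate 1, 2 or 3, K-line replicate 3 or 6 or N-line replicate 2 (adjusted p 0.0515 to 0.123). B4galt6 was called with K-line replicate 5 left out, but not with any other array left out (adjusted p 0.0518 to 0.167). The calls of Plpp3 and Smpd2 against control held under all 16 alternatives, with adjusted p-values of at most 0.0418 and 0.027. That of Abcc1 held in the 15 that tested it (at most 0.0108), but Abcc1 passed the detection filter only through its K-line arrays.

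**Figure D3:**
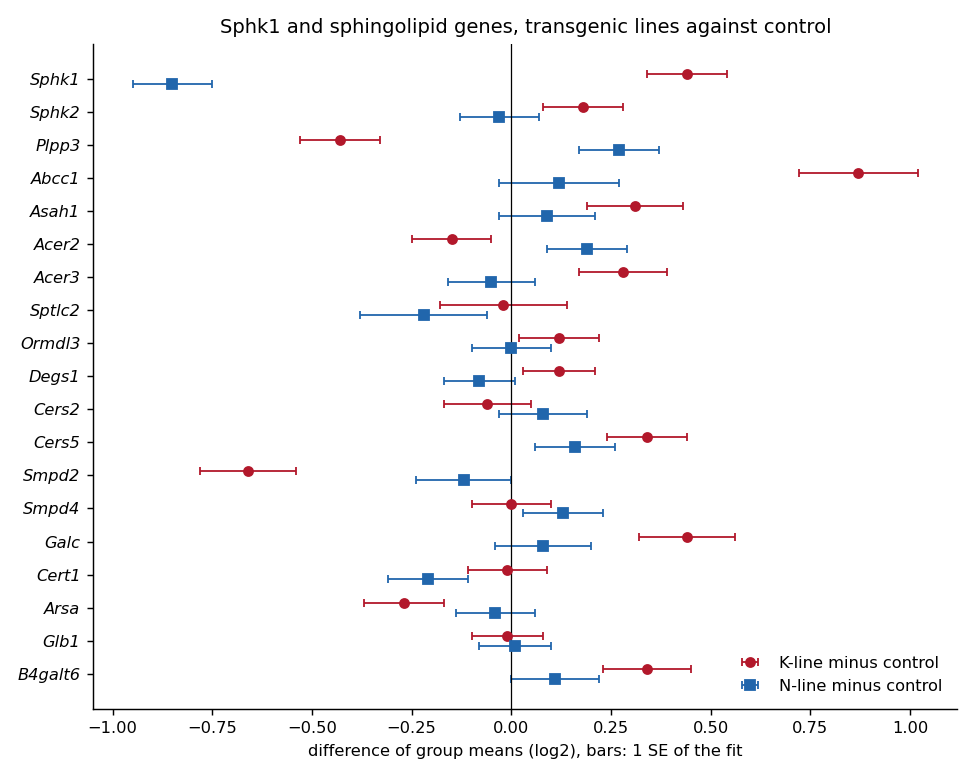
Difference of group means on the log2 scale for Sphk1 and 18 tested genes of sphingolipid and S1P metabolism, K-line minus control (red circles) and N-line minus control (blue squares), with bars of 1 SE of the fit. Sphk1 lies at 0.44 and -0.85, and Plpp3 lies on the other side in each line, at -0.43 and 0.27, of which the second did not pass the test.

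Of 12 listed proteins that bind or phosphorylate sphingosine kinase 1, 3 were tested (Pecam1, Eef1a1 and Mapk3). By limma 0 were called in any of the 3 comparisons. Of all probes 24.3% were called in K-line against control, 0.929% in N-line against control and 24.2% in K-line against N-line. At an unadjusted p under 0.05 there were 0 in K-line against control, 0 in N-line against control and 1 in K-line against N-line. The shares of all probes were 37.7%, 11.8% and 37.2%. The 1 counted was Eef1a1 (0.37), whose probe was close to background. It was detected on 2 K-line arrays, 0 N-line arrays and 1 control array. Eef1a1 therefore reached the detection filter mainly through K-line, where it is highest, and its p-values are not free of that choice. With 3 genes these counts are not read as particular to these proteins. The 2 probes of Mapk3 gave different calls in K-line against control: the brighter one, counted here, was at 0.23 (adjusted p 0.163 by limma) and the dimmer one at 0.35 (adjusted p 0.0319). The brighter one was called with median scaling (0.41, adjusted p 0.0445) and with the authors' value table (0.56, adjusted p 0.0146). Sphkap, an anchoring protein that binds the kinase, did not reach the detection filter.

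Of 17 listed G proteins and effectors that act below S1P receptors and many other receptors, 7 were tested. In K-line against control 2 rose and 2 fell, beside 12% and 12.4% of all probes, and in N-line 0 were called by limma, with 1 at an unadjusted p under 0.05 beside 11.8% of all probes. Rock1, a serine/threonine kinase, had 8.15, 8.33 and 8.30 in K-line, 7.84, 7.93 and 7.70 in N-line and 7.72, 7.49 and 7.87 in control hearts, and rose by 0.57 against control (SE 0.12, adjusted p 0.00533 by limma). Rhoa rose by 0.28 at the edge of the threshold (adjusted p 0.0497), and was not called with any 1 of the 9 arrays left out (adjusted p 0.0518 to 0.158). Gnai1, an inhibitory G protein subunit, fell (-0.77, adjusted p 0.00875), and so did the guanine nucleotide exchange factor Arhgef11 (-0.33, adjusted p 0.0178). With median scaling, in which the median probe was 0.09 higher in K-line, Gnai1 was at -0.60 and not called (adjusted p 0.0595), and Arhgef11 was at -0.23 and not called (adjusted p 0.182). With the authors' value table neither was called, Gnai1 at -0.56 (adjusted p 0.0822) and Arhgef11 at -0.14 (adjusted p 0.225). Arhgef11 was not called without control replicate 1 or 2 either (adjusted p 0.0603 and 0.0615). Rock2, the paralog of Rock1, had 7.04, 7.32 and 6.93 in K-line, 6.37, 6.49 and 6.64 in N-line and 7.03, 6.91 and 7.01 in control hearts. K-line and control overlapped, and N-line lay below both. Rock2 was 0.59 higher in K-line than in N-line (SE 0.12, adjusted p 0.00467), while its N-line difference from control, -0.48, did not pass the test (adjusted p 0.0905), though it did without K-line replicate 5 (adjusted p 0.0428) and with its slide normalized alone (adjusted p 0.0487). In K-line against N-line 4 of the 7 were higher (Gna12 at 0.61, Rhoa at 0.30, Rock1 at 0.44 and Rock2) and 2 were lower (Gnai1 at -0.58 and Arhgef11 at -0.32), beside 12.1% and 12.2% of all probes. Of these 6 calls only that of Rock2 held under all 16 alternatives. The call of Gna12 ended in 10 of 16 (with every array but N-line replicate 3 left out in turn, adjusted p 0.0502 to 0.165). Those of Rhoa and Gnai1 ended in 7 each, among them without K-line replicate 3 or 6 or N-line replicate 2 or 4 for both, and without K-line replicate 5 or control replicate 1 for Rhoa. That of Arhgef11 ended in 5 (without K-line replicate 5 or N-line replicate 2 or 3, and at -0.14 with median scaling and -0.13 with the authors' value table), and that of Rock1 in 4 (without K-line replicate 5 or 6 or N-line replicate 2 or 4).

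Fewer cells of a type and less RNA per cell cannot be told apart in these heart samples, and Sphk1 is expressed by several cell types of the heart. Macrophage and leukocyte markers were higher in K-line, where Sphk1 was highest. Of 11 listed 8 had a named probe and 7 were tested. Against control 7 of 7 rose (median 1.49), for example Lyz2 by 2.89 and C1qb by 1.53, beside 12% of all probes that rose. Their summed signal ranged from 4676 to 8295 in K-line, from 1742 to 1861 in N-line and from 1656 to 1823 in control hearts (linear scale), and Ptprc was below background on all 3 control arrays. In N-line, where Sphk1 was lowest, 0 of these 7 were called, beside 0.929% of all probes. At an unadjusted p under 0.05 there were 0, beside 11.8% of all probes, and the median difference of the 7 was -0.02. Of 4 tested endothelial markers of 9 listed, 2 fell in K-line (Robo4 at -0.43 and Cav1 at -0.29) beside 12.4% of all probes. In N-line 0 of the 4 were called by limma. There 2 had an unadjusted p under 0.05, in opposite directions (Robo4 at -0.29 and Emcn at 0.22), beside 11.8% of all probes. The summed signal of the 4 was 15478 to 16001 in K-line, 17671 to 18107 in N-line and 17745 to 18900 in control hearts. Pecam1 was at 0.05 in K-line and -0.12 in N-line.

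Among the other marker lists the smooth muscle actin Acta2 fell in K-line (-0.78), as the 1 tested of 7 listed markers, with a signal of 912 to 1093 in K-line, 1535 to 1655 in N-line and 1648 to 1701 in control hearts. Of 5 tested fibroblast markers of 8 listed, Postn rose in K-line (1.07) and 0 fell, with a summed signal of 26552 to 31938 in K-line, 26536 to 28637 in N-line and 26087 to 27653 in control hearts. Of 4 tested red blood cell markers of 9 listed, 2 fell in K-line, Ank1 (-0.99) and Dmtn (-1.26). The globin genes Hba-a1 (-0.03) and Hbb-b1 (-0.01) were not called. The summed signal of the 4 was 25776 to 30295 in K-line, 28338 to 31827 in N-line and 27843 to 29762 in control hearts. Both tested atrial markers of 5 listed fell in K-line. Their summed signal was 371 to 659 in K-line, 13191 to 13943 in N-line and 11180 to 12715 in control hearts. Myl7 was at -7.28 in K-line against control. It was above background on 2 of 3 K-line arrays, so the size of this difference is uncertain. Its log2 signals were 5.22, 8.44 and 4.90 in K-line, against a mean of 13.46 in control hearts. The connexin Gja5 fell in K-line (-0.73) and rose in N-line (0.78). The K-line contrasts are thus also between samples of unlike atrial signal, and the share of atrial tissue was not tested. Of 2 tested nerve markers 1 rose and 1 fell in K-line, and of 3 mesothelial markers 1 fell. Beside the counts of these lists, 12% of all probes rose and 12.4% fell in K-line against control. In N-line against control 0.345% of all probes rose. No platelet or mast cell marker reached the detection filter. The part of these cell types in the level of Sphk1 was not tested.

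The genes whose signal followed Sphk1 most closely over the 9 arrays were named by a rule on Pearson's r, among 996 named probes of 937 genes whose group means spanned at least 0.5 on the log2 scale. Of these probes 17 had an r of at least 0.9 and 15 an r of at most -0.9. The 9 arrays share their groups and slides, so an r describes the order of 3 groups more than 9 separate points. Ppfia1, which encodes the scaffold protein liprin alpha-1 of cell adhesion sites, was closest (r = 0.989). It had 7.30, 7.51 and 7.35 in K-line, 6.32, 6.18 and 5.96 in N-line and 7.09, 7.13 and 6.99 in control hearts, the same order of groups without overlap, and its other probe had an r of 0.789. The next were Clic4, an intracellular chloride channel protein (0.952, other probe 0.756), the decoy death receptor Tnfrsf22 (0.949), the nuclear lamin gene Lmna (0.947, other probe 0.937), the ubiquitin ligase Trim47 (0.930) and the RNA-binding protein Larp4b (0.927).

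Their differences were smaller than those of Sphk1 in N-line, except for Ppfia1 with -0.91. In K-line against control they lay between 0.32 for Ppfia1 and 0.49 for Trim47, and in N-line the other 5 lay between -0.40 for Trim47 and -0.29 for Clic4. The genes that ran most opposite to Sphk1 were the cytochrome P450 gene Cyp2j9 (r = -0.986), Gucy1a1, a subunit of the nitric oxide receptor guanylate cyclase (-0.958), the transporter family gene Slc22a23 (-0.948) and Mamstr, a coactivator of MEF2 factors (-0.936). Gucy1a1 was the brightest of them, with 10.78, 10.91 and 10.77 in K-line, 11.66, 11.70 and 11.67 in N-line and 11.33, 11.18 and 11.26 in control hearts. Its order, N-line above control above K-line, is that of Plpp3. These genes were picked for their likeness on the same arrays, so the values are given with no test.

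**Figure D4:**
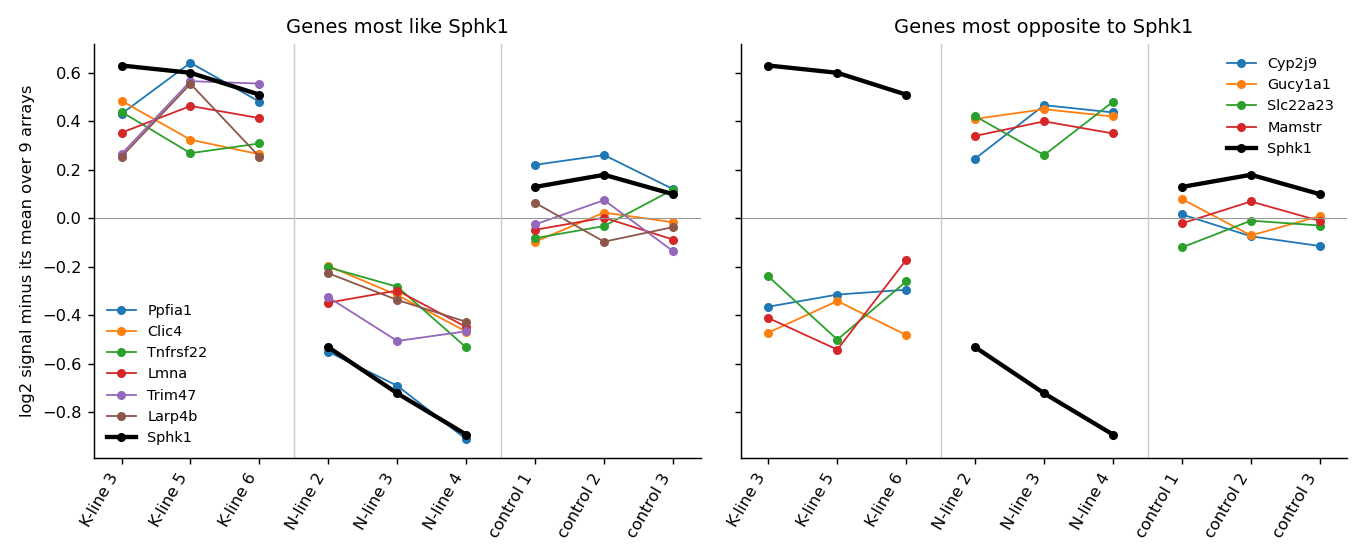
Log2 signal minus the mean over 9 arrays for Sphk1 (black) and for the 6 genes most like it (left) and the 4 most opposite to it (right), by array; lines join arrays of 1 group and carry no order. Sphk1 and the 6 genes on the left are highest in K-line and lowest in N-line, and the 4 genes on the right are the other way round.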

How the data were processed

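Total RNA of mouse hearts (3 arrays per group) was hybridised to 1-colour bead arrays. The deposited probe intensities were exported with BeadStudio 2.3.47, per the submitters' processing notes, and per the file headers they were not normalized. The deposited detection value of each probe is a fraction from 0 to 1, near 1 for bright probes, and 1 minus it was taken as the detection p-value. The authors also deposited a table of processed intensities on a linear scale, made by a normalization that no source used here describes; it served as an alternative (values under 1 set to 1). Array precision is limited by the number of arrays.

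Intensities were background-corrected (normexp with detection p-values, offset 16), quantile-normalized and taken to log2 with limma 3.58.1 in R 4.3.3. Probes with detection p under 0.05 on at least 3 arrays were fitted with 3 group means over all 9 arrays (lmFit, eBayes), with Benjamini-Hochberg adjustment over all 19692 tested probes and a threshold of 0.05. The procedure was tested on simulated data. No 2 arrays shared more than 327 identical raw values.

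Probe codes carry no symbols. Codes with 1 or 2 leading zeros were read as NCBI gene numbers: of 9995 distinct numbers, 8102 (81.1%) are mouse genes in RefSeq (GRCm38.p6), against at most 45.9% after shifting the numbers by 1 to 20. A list gene is represented by its brightest tested probe. Genes named are Sphk1, all measured genes of kinases, receptors, S1P breakdown, export and ceramidases, those called in the other pathway lists, the 6 most and 4 least correlated with Sphk1, and cell markers beside them. Sphk1, the lists and the rules were chosen with earlier results of these data known. Alternatives changed the background correction, offset, scaling, source of values, filter, arrays in the model, slide and replicate block, and left out each array in turn. One gene of the list of binding partners and kinases is not reported here and was left out of that list's counts.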

Additional observations from a re-analysis of the deposited data

Results flagged for a closer look

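The K-line and N-line effects against control were set against each other for Sphk1 and for the genes of its pathway lists. The effect on Sphk1 differed by 1.30 on the log2 scale (K-line effect minus N-line effect): all 3 K-line arrays were above all control arrays and all 3 N-line arrays below them. This difference was not tested, since the gene was chosen for it.

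For 12 of 28 tested genes of the pathway lists the limma contrast of K-line with N-line, which equals the difference of the 2 effects because both share the control arrays, passed the threshold, beside 24.2% of all probes. In S1P and sphingolipid metabolism the K-line effect exceeded the N-line effect for Abcc1 by 0.76 (above background on 0 control arrays and 1 N-line array, and 0.41 to 2.15 under other processing), for Galc by 0.36 and for Acer3 by 0.33, and lay below it for Plpp3 (-0.70), Smpd2 (-0.54) and Acer2 (-0.34). Among G proteins and their effectors it exceeded the N-line effect for Gna12 by 0.61, for Rock2 by 0.59, for Rock1 by 0.44 and for Rhoa by 0.30, and lay below it for Gnai1 (-0.58) and Arhgef11 (-0.32). Under the alternatives the calls of Plpp3 and Rock2 held throughout. That of Abcc1 held in the 15 that tested it, but Abcc1 passed the detection filter only through its K-line arrays. The other calls ended in 1 of 16 for Smpd2, 4 of 16 for Rock1, 5 of 16 for Arhgef11 and 7 of 16 each for Gnai1 and Rhoa. They ended in 8 of 16 for Acer2, 9 of 16 for Acer3, 10 of 16 for Gna12 and 12 of 15 for Galc. K-line, its slide and the apparent sex of its arrays cannot be told apart in any of these contrasts.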

How the results depend on the processing

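Sphk1 kept its direction in all 3 comparisons under every alternative that was run for it (background correction, offset, scaling, source of values, slide, replicate block and 1 array left out). The filter and the groups in the model do not enter its group means. K-line minus control was 0.78 with the authors' value table and 0.63 with median scaling, against 0.44 as reported, and ranged from 0.42 to 0.48 with 1 array left out. N-line minus control was -0.98 with the authors' value table, -0.63 without background correction and -0.69 with offset 50, against -0.85, and ranged from -0.95 to -0.77 with 1 array left out. K-line minus N-line was 1.77 with the authors' value table, 1.48 with median scaling, 0.99 without background correction and 1.07 with offset 50, against 1.30, and ranged from 1.21 to 1.39. The number of probes called in N-line against control was less steady: 183 as reported, 69 with the authors' value table, 109 with median scaling, 279 without background correction, 314 fitting the compared groups alone, 337 with their slide normalized alone and 25 to 289 with 1 array left out. Calls in K-line against control ranged from 3327 to 4692 with 1 array left out (4795 as reported), and in K-line against N-line from 3044 to 4780 (4774 as reported), with 3044 without N-line replicate 2. Scaling moved the split of K-line calls: 2359 were higher and 2436 lower as reported, against 3030 and 1267 with median scaling and 5436 and 1014 with the authors' value table. In K-line against N-line 2377 were higher and 2397 lower as reported, 3434 and 1049 with median scaling and 5426 and 949 with the authors' value table. Of the 18 sphingolipid genes, 6 were called in K-line against control as reported, beside 24.3% of all probes. There 11 were called with the authors' value table (9 higher), beside 6450 of 19691 probes (5436 higher). In that table the median of the tested probes was itself 0.24 higher in K-line than in control. Between 3 and 6 were called with 1 array left out (3 without control replicate 1 or 2), beside 3327 to 4692 probes. These counts are not read as particular to the pathway. In K-line against N-line 6 of the 18 were called as reported, beside 24.2% of all probes. Fitting the compared groups alone 3 were called, beside 3825 probes. With 1 array left out 3 to 5 were called (3 without K-line replicate 5 or N-line replicate 2, 3 or 4), beside 3044 to 4780 probes. With the authors' value table Cert1 (0.33, adjusted p 0.0439) and Smpd4 (0.34, adjusted p 0.0411) were higher in K-line than in control by limma, against -0.01 and a value just below 0 as reported. The cause of these shifts was not tested. Control and N-line share the replicate numbers 2 and 3, and same-numbered arrays deviated together with r = 0.22 and 0.11; with 2 pairs and no label on pairing they share only a number. With the number as a replicate block 16 probes were called in N-line against control and Sphk1 was at -0.77. K-line shares 1 number with each other group, so no block could be fitted there. Sphk1 in N-line lies closest to background, where its level is least certain.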
